A study of Drosophila melanogaster with 8 samples.

Results

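Ribosomal proteins of the cytosol and of the mitochondrion were followed across 2 organs of the female reproductive tract of Drosophila melanogaster, in an Hr39 mutant and in wild type. The members were all probe sets whose single gene symbol begins with RpL or RpS, for the cytosolic ribosome, or with mRpL or mRpS, for the mitochondrial ribosome. This gave 118 probe sets, of which 1, for the separate gene RpLP0-like, was left out. The remaining 117 probe sets, of 18769 non-control ones, stand for 109 of the 11982 genes with a probe set of their own. They were 46 cytosolic ones for 40 genes (26 of the large and 20 of the small subunit) and 71 mitochondrial ones for 69 genes (45 of the large and 26 of the small subunit). The choice used names and no measured value, and the subunits carry the letters L and S in the symbols.

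Total RNA was hybridised to 8 Affymetrix Drosophila Genome 2.0 arrays, with 2 arrays for each of 4 groups. The groups were spermathecae of Hr39(04443) females, spermathecae of wild-type females, lower reproductive tract of Hr39(04443) females and lower reproductive tract of wild-type females, the lower tract having been taken after removal of the spermathecae. All females were mated adults aged 4 days. The labels name neither the wild-type strain nor the number of dissected females, and they call the arrays of a group an original and a duplicate without saying that they came from separate animals, so p-values measure the spread between these arrays, which may be technical. Each sample was a whole dissected organ, in which fewer cells of a type and less RNA per cell cannot be told apart.

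A cytosolic ribosome translates the mRNAs of the nucleus, and its protein genes are among the most strongly transcribed in growing and secreting cells. Flies with a single working copy of many of these genes show the Minute phenotype of slow development and thin bristles. A mitochondrial ribosome is built from its own nuclear-encoded proteins and translates the few mRNAs of the mitochondrial genome, which encode subunits of the respiratory chain. Spermathecae store sperm and secrete proteins from a ring of large polyploid gland cells, and Hr39 is a nuclear receptor needed for their formation.

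The groups carried the marks of their labels. Send1 and Send2, serine proteases of the spermathecal gland, and Hr39 were higher in spermathecae of both genotypes, with 6 of 6 probe sets called, and the summed signal of 4 muscle genes was 840 to 1078 on spermathecal arrays and 18752 to 22123 on lower-tract arrays. Hr39 probe set 1630002_s_at read 477 and 452 in mutant spermathecae, against 821 and 725 in wild-type spermathecae (adjusted p = 0.0351, limma), and it read 59.6 and 65.4 in mutant lower tract, against 73.3 and 88.2 in wild-type lower tract (adjusted p = 0.368). The other 3 Hr39 probe sets were not called between genotypes in either organ: 1628556_s_at read 159 and 211 in mutant spermathecae, against 154 and 234 in wild-type spermathecae (a difference of -0.05, adjusted p = 0.941), and 1631402_s_at and 1632845_at differed there by -0.57 (0.0889) and -0.62 (0.485). Which part of the gene each probe set reads is not given in the sources used here. One library stood apart: replicate 1 of the wild-type lower tract had a summed germline-marker signal of 3249. The sum was 630 to 917 on the other 3 lower-tract arrays and 74.5 to 158 on spermathecal arrays. On this replicate osk read 556, CycB 1134 and otu 142, against 11.3 to 28.7, 19.4 to 181 and 9.04 to 14.7 on the other lower-tract arrays. Not all of the markers rose: grk read 446 on it, against 563 to 632 on the others, and vas 16.4, against 2.67 to 18.7. Below, it is called the array with the high germline markers, which refers to osk, CycB and otu.

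Of the 117 members, 112 passed the filter on low signals and were tested with the other probe sets, 10113 in all: 41 cytosolic probe sets for 36 genes and all 71 mitochondrial ones. The 5 cytosolic probe sets that did not pass were those of RpL10Aa, RpL22-like, RpS10a and RpS28-like and 1 of RpS29 (1625248_at), with signals of 0.473 to 19.8 on the 8 arrays. A probe set was called where limma's adjusted p was below 0.05, and all differences are given on the log2 scale of the signal plus 4, with limma's standard error (SE).

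The cytosolic proteins sat close to the top of each array's scale. In 30 of the 41 tested cytosolic probe sets, and in 0 of the 71 mitochondrial ones, the mean signal of at least 1 group reached 50% of that group's brightest hybridisation control, a bacterial or phage transcript added to the sample before hybridisation; 28 of the 30 did so in all 4 groups. Their signals ran from 7254 to 17313 on mutant spermathecal arrays and from 6416 to 19357 on wild-type spermathecal arrays. They ran from 3791 to 10113 on mutant lower-tract arrays and from 3976 to 9770 on wild-type lower-tract arrays. The brightest control itself read 12405 and 16181 in mutant spermathecae, 16967 and 13036 in wild-type spermathecae, 8384 and 8376 in mutant lower tract, and 8042 and 9532 in wild-type lower tract. A response that flattens near the top of the scale would make differences smaller, and no scanner flag for saturation was used here. Mitochondrial members lay far below, between 27.2 and 1369 on all arrays.

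**Figure D1:**
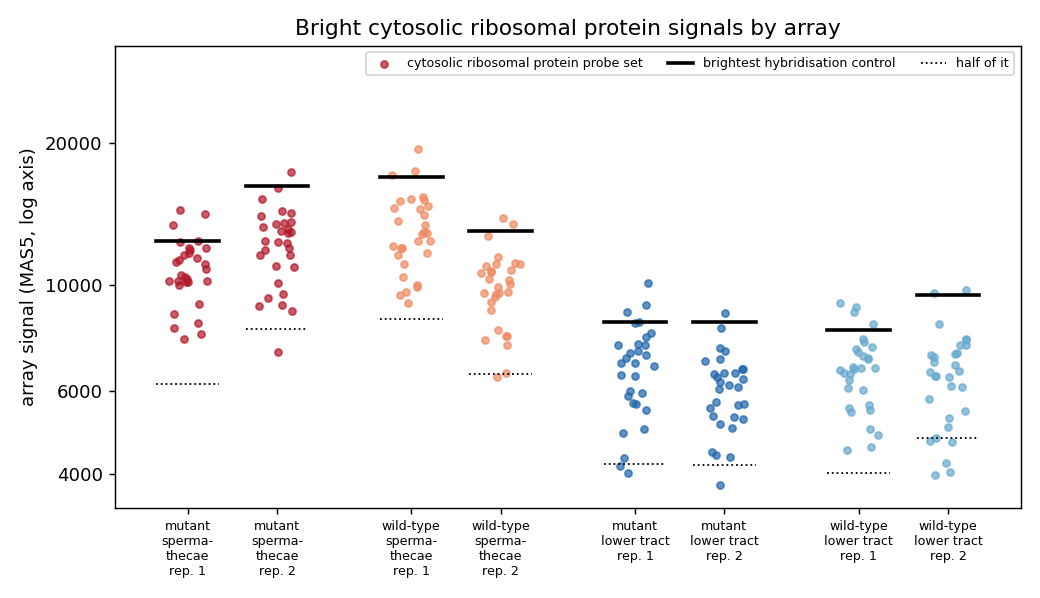
Signals of the 30 near-saturated cytosolic ribosomal protein probe sets on each of the 8 arrays, on a log axis. Points are probe sets, solid bars the array's brightest hybridisation control and dotted bars 50% of it; points and bars both lie higher on the 4 spermathecal arrays than on the 4 lower-tract arrays.

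The question put to the organs was how far spermathecae differ from the rest of the lower tract. Most cytosolic ribosomal proteins read higher in spermathecae, in both genotypes. In the mutant, 33 of 41 cytosolic probe sets were called higher in spermathecae and 0 lower, where 24.7% of all tested probe sets were called higher, 21.5% lower and 46.2% in either direction. In wild type, 34 were called higher and 1 lower, where 22.2% of all tested probe sets were called higher, 21.5% lower and 43.7% in either direction. Without replicate 1 of the wild-type lower tract, 27 were called higher and 0 lower in wild type, and without replicate 2 of the mutant spermathecae 21 were called higher and 0 lower in the mutant. The number called higher over all tested probe sets fell as well in these 2 fits. The median difference of the cytosolic probe sets was 0.81 in the mutant and 0.78 in wild type, beside 0.14 and 0.07 over all tested probe sets in the same order of genotypes. Both subunits were included, with 21 of 24 large-subunit probe sets called higher in each genotype, and 12 of 17 small-subunit ones in the mutant and 13 of 17 in wild type. The comparisons in the 2 genotypes share no array, and 32 probe sets were called higher in both. The share of all tested probe sets called higher in both was not counted. Their organ differences in the 2 genotypes also went together, with Pearson's r of 0.84. Most of the cytosolic calls were of the 30 near-saturated members. Of the 11 other tested cytosolic probe sets, 3 (27.3%) were called higher and 0 lower in the mutant. In wild type 4 of the 11 (36.4%) were called higher and 1 lower, beside the 24.7% and 22.2% of all tested probe sets called higher.

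Among the 30 near-saturated members, all were called higher in spermathecae in both genotypes, by 0.55 to 1.35 in the mutant and by 0.53 to 1.22 in wild type. Their arrays did not overlap between organs for 30 of 30 in either genotype, where 44.4% of all tested probe sets in the mutant and 37.0% in wild type had both spermathecal arrays above both lower-tract arrays. RpS21, a protein of the small subunit (1623644_s_at), had the largest difference of the 30 in each genotype. It read 10333 and 11852 in mutant spermathecae, against 4316 and 4352 in mutant lower tract. In wild type it read 12810 and 8879 in spermathecae, against 4978 and 4221 in the lower tract. The spermathecal arrays all stood above the lower-tract ones, by 1.35 in the mutant (SE 0.195, adjusted p = 0.000326) and 1.22 in wild type (SE 0.195, adjusted p = 0.000695).

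RpL27, of the large subunit (1632335_at), read 12366 and 14346 in mutant spermathecae against 5644 and 5513 in mutant lower tract, and 13401 and 10682 in wild-type spermathecae against 6645 and 5249 in wild-type lower tract. The organs did not overlap, and the difference was 1.26 in the mutant (SE 0.183, adjusted p = 0.000344) and 1.02 in wild type (SE 0.183, adjusted p = 0.00141). RpL37-1 (1628061_at), also of the large subunit, read 8336 and 9593 in mutant spermathecae against 4030 and 3791 in mutant lower tract, and 11618 and 7495 in wild-type spermathecae against 4559 and 3976 in wild-type lower tract. Again every spermathecal array was above every lower-tract array, with differences of 1.19 in the mutant (adjusted p = 0.00111) and 1.13 in wild type (adjusted p = 0.00165). RpS12, of the small subunit (1627364_s_at), read 11222 and 13265 in mutant spermathecae against 5938 and 5311 in mutant lower tract, a difference of 1.12 (SE 0.173, adjusted p = 0.000518), and differed by 0.93 in wild type (adjusted p = 0.00173). Scaling to the hybridisation controls gave RpS12 0.21 in the mutant (0.382) and -0.04 in wild type. In the same order of genotypes, it gave RpS21 0.45 and 0.24, RpL27 0.35 and 0.04, and RpL37-1 0.29 and 0.16, none of them called.

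The proteins of the stalk, which recruits the elongation factors to the ribosome, did the same. RpLP1 (1623606_at), an acidic stalk protein, read 13389 and 16043 in mutant spermathecae against 8390 and 7012 in mutant lower tract, and 19357 and 13887 in wild-type spermathecae against 8809 and 8297 in wild-type lower tract. The organs did not overlap, and its difference was 0.93 in the mutant (adjusted p = 0.00364) and 0.94 in wild type (adjusted p = 0.00376), where control scaling (arrays brought to equal hybridisation control signals) gave 0.03 and -0.03 and quantile normalisation ended both calls (0.0575 and 0.0603). RpLP2 (1623150_at), its partner, differed by 0.71 and 0.78 in the same order of genotypes (adjusted p = 0.0127 and 0.00854), with -0.19 in each under control scaling and both calls lost with quantile normalisation (0.739 and 0.254). RpLP0 (1637546_at), the base of the stalk, differed by 0.55 and 0.56 (adjusted p = 0.0234 in each), which turned to -0.08 and -0.05 with quantile normalisation and to -0.35 and -0.42 with control scaling. Its calls were lost without any 1 of the 4 mutant arrays in the mutant (0.0545 to 0.171), and in wild type without either lower-tract array or replicate 1 of the spermathecae (0.0769 to 0.0967). The RpLP2 call in the mutant was lost without replicate 2 of the mutant lower tract (0.109) or of the mutant spermathecae (0.0732).

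The proteins made as fusions with ubiquitin were RpL40 (1633277_at) and RpS27A (1624906_at). RpL40 read 9147 and 9393 in mutant spermathecae against 5449 and 5010 in mutant lower tract, and 9205 and 7839 in wild-type spermathecae against 5589 and 5041 in wild-type lower tract. The organs did not overlap, with differences of 0.83 in the mutant (adjusted p = 0.00162) and 0.68 in wild type (adjusted p = 0.00546), which control scaling turned to -0.08 and -0.30. RpS27A had the smallest wild-type difference of the 30, at 0.53 (adjusted p = 0.0278), and 0.64 in the mutant (adjusted p = 0.0113), values that turned to -0.09 and -0.02 with quantile normalisation and to -0.44 and -0.27 with control scaling. Its wild-type call was lost without either mutant lower-tract array (0.0509 and 0.0515), either wild-type lower-tract array (0.0673 and 0.136) or replicate 1 of the wild-type spermathecae (0.0912). Its mutant call was lost without replicate 2 of the mutant lower tract (0.0979) or of the mutant spermathecae (0.0641).

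**Figure D2:**
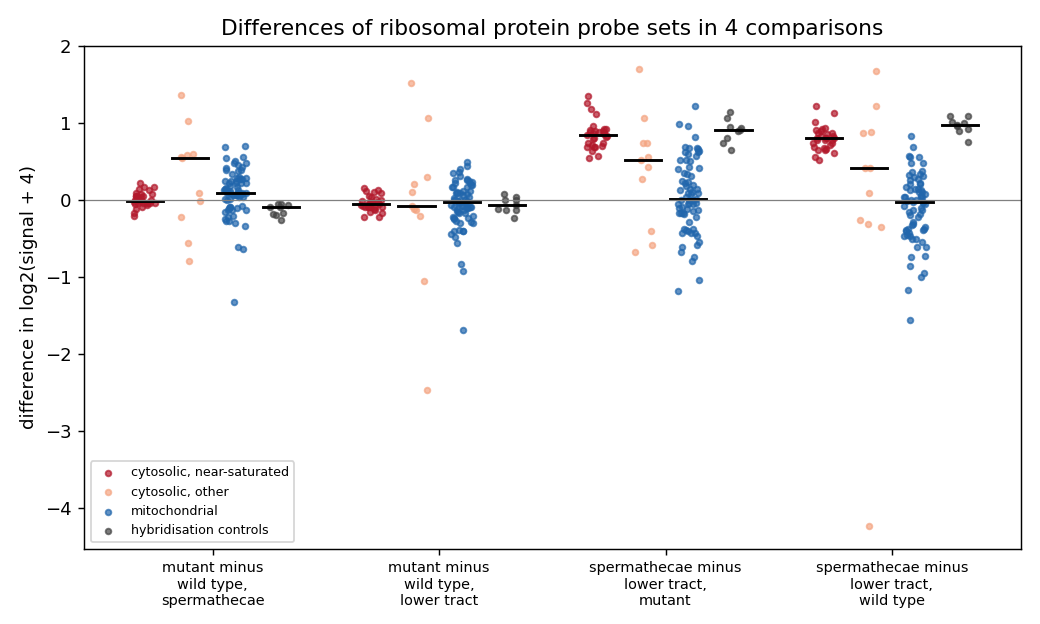
Differences in log2(signal + 4) in 4 comparisons for the near-saturated cytosolic, other cytosolic and mitochondrial probe sets and for the 9 hybridisation controls. Points are probe sets and bars their medians; the bright cytosolic members stay within -0.22 and 0.22 between genotypes and lie at 0.53 to 1.35 between organs, where the controls also lie above 0.

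The hybridisation controls moved with this organ difference. The 9 control probe sets, which carry no fly RNA, read higher on spermathecal arrays by a mean of 0.90 (0.65 to 1.15) in the mutant and 0.97 (0.76 to 1.09) in wild type, beside means of 0.86 and 0.81 for the 30 bright cytosolic members in the same order of genotypes. Arrays scaled to these controls, an alternative chosen after seeing the data, gave 0 cytosolic probe sets higher in spermathecae and 2 lower in the mutant, and 0 higher and 4 lower in wild type, with medians of -0.10 and -0.19. The same scaling put the median of all tested probe sets at -0.77 in the mutant and -0.90 in wild type. The part of the controls in the organ difference was not tested further. Within spermathecae the bright members and the controls also moved together between duplicate arrays: in wild type replicate 1 exceeded replicate 2 for 30 of 30 members, by a median of 0.37, with mean control levels of 11.43 and 11.06, and in the mutant replicate 2 exceeded replicate 1 for 28 of 30, with mean control levels of 11.27 and 10.96 for replicates 2 and 1. In the lower tract of both genotypes they did not. In mutant lower tract replicate 1 exceeded replicate 2 for 27 of 30 members while the controls averaged 10.16 on replicate 1 and 10.26 on replicate 2, and in wild-type lower tract it did so for 21 of 30, by a median of 0.05, while the controls averaged 10.10 on replicate 1 and 10.44 on replicate 2.

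Relative to the other probe sets of the same arrays, the cytosolic members stood above the median of all tested probe sets by 0.67 in the mutant and 0.71 in wild type, and any scaling by 1 factor per array leaves these values as they are on the log scale. Centring each array on its median kept the calls at 33 higher and 0 lower in the mutant and at 34 higher and 1 lower in wild type, with medians of 0.97 and 0.95 and with the median of all tested probe sets at 0.30 and 0.24. Quantile normalisation, which forces the brightest signals of all arrays to the same values, left 16 called higher and 0 lower in the mutant and 16 higher and 1 lower in wild type, with medians of 0.28 and 0.27, or 0.10 and 0.09 above all tested probe sets. The difference within an array between the mean log2 signal of the 30 bright cytosolic members and that of the mitochondrial members does not depend on such a factor. It was 5.76 and 6.06 in mutant spermathecae, 6.26 and 5.72 in wild-type spermathecae, 5.21 and 5.01 in mutant lower tract, and 5.02 and 5.15 in wild-type lower tract, so the 4 spermathecal arrays lay above the 4 lower-tract arrays. The gap does not tell which of the sets differed. The sets lie at different signal levels, and an array response that varies with brightness was not tested.

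**Figure D3:**
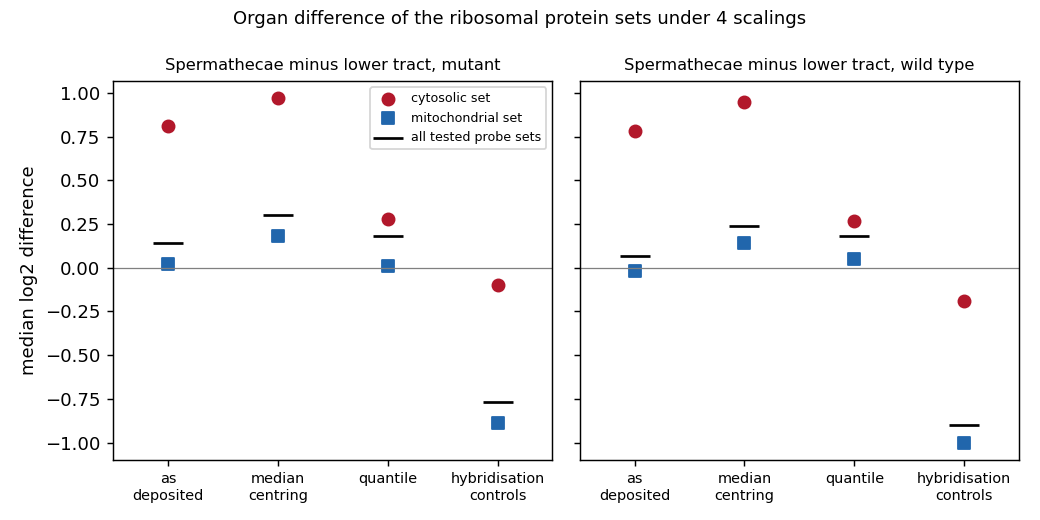
Median log2 difference between spermathecae and lower tract for the cytosolic set (41 probe sets), the mitochondrial set (71) and all 10113 tested probe sets, under 4 scalings of the arrays, for the mutant and for wild type. The cytosolic median is 0.81 in the mutant and 0.78 in wild type as deposited and turns to -0.10 and -0.19 with scaling to the hybridisation controls. Its gap above the median of all probe sets is 0.67 and 0.71 as deposited. Median centring and control scaling, with 1 factor per array, cannot change this gap. With quantile normalisation it is 0.10 and 0.09.

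Between genotypes the bright cytosolic members differed little. In mutant against wild-type spermathecae, 1 of 41 cytosolic probe sets was called higher and 0 lower, where 4.04% of all tested probe sets were called higher, 3.89% lower and 7.93% in either direction. In mutant against wild-type lower tract, 0 were called higher and 1 lower, where 2.47% of all tested probe sets were called higher, 3.33% lower and 5.80% in either direction. The median difference of the cytosolic set was 0.01 in spermathecae and -0.05 in the lower tract, beside 0.02 and 0.00 over all tested probe sets. The 30 bright members ranged from -0.20 to 0.22 in spermathecae and from -0.22 to 0.16 in the lower tract, with 0 called in either organ by limma and smallest adjusted p of 0.513 and 0.608. At an unadjusted p below 0.05, 2 of the 41 cytosolic probe sets passed in spermathecae and 3 in the lower tract, where 21.5% and 17.4% of all tested probe sets did. RpS21 read 10333 and 11852 in mutant spermathecae, against 12810 and 8879 in wild-type spermathecae, so the genotypes overlapped there.

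The call in spermathecae was a probe set of RpL3 (1625889_at), which builds the peptidyl transferase region of the large subunit. It read 474 and 423 in mutant spermathecae, against 171 and 276 in wild-type spermathecae, a difference of 1.03 (SE 0.237, adjusted p = 0.0278). The genotypes did not overlap. The 2 other RpL3 probe sets were not called: the bright one (1630270_s_at), near the top of the scale, read 7693 and 7254 in mutant spermathecae, against 9902 and 6553 in wild-type spermathecae, and the dim one (1634685_at) read 51.9 and 46.8, against 19.7 and 48.6, a difference of 0.59 (SE 0.428, adjusted p = 0.476). The call was lost without replicate 1 of the mutant spermathecae (adjusted p = 0.161), without replicate 2 (0.117) and without replicate 1 of the wild-type spermathecae (0.119). It was also lost with no variance trend (0.0702), in a fit to the 4 spermathecal arrays alone (0.0502) and with control scaling (0.0817). Between organs 1625889_at was higher in spermathecae by 1.71 in the mutant (SE 0.237, adjusted p = 0.00025), where the lower tract read 151 and 119, and by 0.89 in wild type (adjusted p = 0.0127), where the lower tract read 115 and 116. Control scaling took the mutant difference to 0.80 and ended that call (0.0765). The wild-type difference was lost without replicate 2 of the wild-type spermathecae (0.0754) and turned to -0.08 with control scaling. The dim probe set 1634685_at was called higher in wild-type spermathecae, at 1.23 (adjusted p = 0.0404), over lower-tract signals of 14.6 and 8.17, and leaving out any 1 of the arrays other than wild-type spermathecae replicate 1 and wild-type lower tract replicate 1 ended that call (adjusted p of 0.0601 to 0.258).

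**Figure D4:**
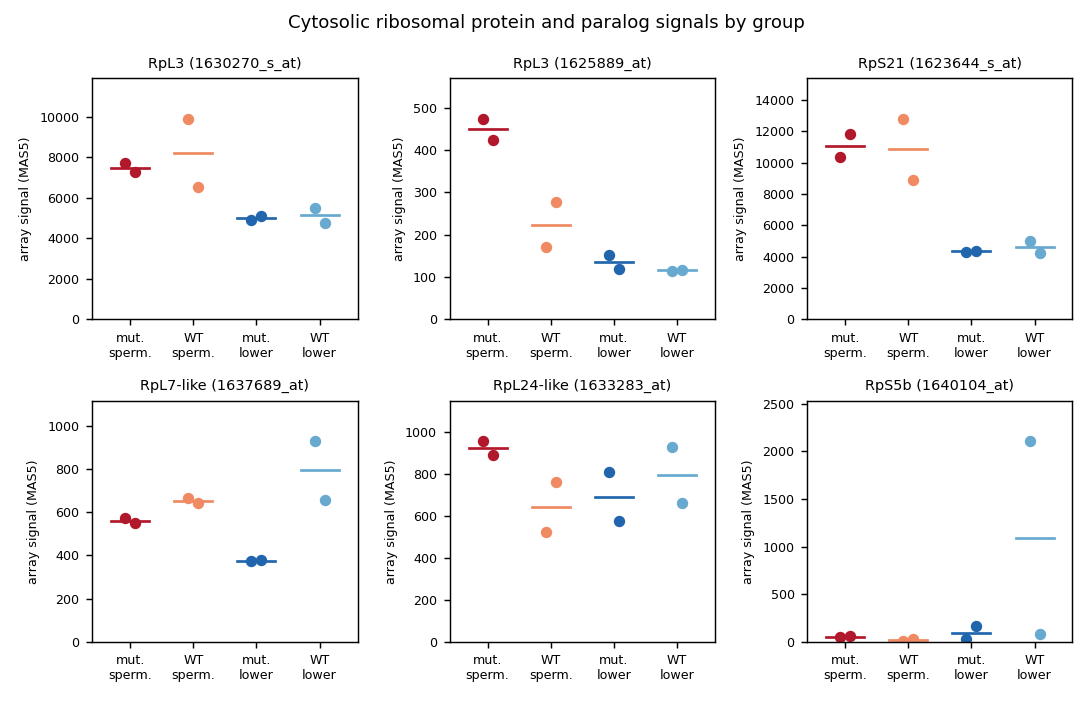
Signals of 6 cytosolic members and paralogs on the 2 arrays (points) of each group, with bars at the group mean, on linear axes from 0. RpS21 separates by organ, RpL3 1625889_at is highest in mutant spermathecae, RpL7-like is lowest in mutant lower tract, and RpS5b is high on 1 wild-type lower-tract array.

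Paralogs and relatives of the standard proteins varied. As deposited, RpS28b, RpL10Ab and RpL34a were called higher in spermathecae of both genotypes, while RpL7-like, RpL24-like, RpS5b and RpS19b were not. RpL7, RpL24, RpS5a and RpS19a had no probe set among the members, so these relatives could not be set beside them. RpL7-like (1637689_at), a relative of the yeast ribosome assembly factor Rlp7, read 374 and 378 in mutant lower tract, against 930 and 658 in wild-type lower tract, and the genotypes did not overlap. It fell by 1.05 in the mutant lower tract (SE 0.175, adjusted p = 0.00688), the single cytosolic call there. In spermathecae it read 573 and 550 in the mutant, against 664 and 643 in wild type, a difference of -0.22 (adjusted p = 0.529). The difference of its genotype effect between organs was 0.83 (SE 0.248, adjusted p = 0.133). Without replicate 2 of the wild-type lower tract, that group was read from the array with the high germline markers alone, and this difference was 1.08. Spermathecae exceeded the lower tract in the mutant by 0.57 (adjusted p = 0.0224). In wild type the organ difference was -0.26 (adjusted p = 0.262), -0.51 with that array alone for the lower tract, and -1.23 with control scaling (0.00159). Its call in the lower tract was lost without replicate 1 of the mutant lower tract (adjusted p = 0.078), without replicate 2 (0.064) and with control scaling (0.0769), and its call between organs in the mutant was lost without any 1 of the 4 mutant arrays (0.0775 to 0.105), with no variance trend (0.0589) and with control scaling, which turned the difference to -0.33 (0.382).

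RpL24-like (1633283_at), a relative of the yeast assembly factor Rlp24, read 959 and 894 in mutant spermathecae against 523 and 761 in wild-type spermathecae, and 810 and 576 in mutant lower tract against 928 and 665 in wild-type lower tract. The lower-tract values of the genotypes overlapped, and it was called in no comparison, though control scaling called it lower in wild-type spermathecae than lower tract, at -1.29 (0.00233). RpS5b (1640104_at), a paralog of RpS5a known from the female germline, read 50.9 and 55.7 in mutant spermathecae, 13.0 and 24.9 in wild-type spermathecae, 30.5 and 162 in mutant lower tract, and 2109 and 78.1 in wild-type lower tract. The value of 2109 came from the array with the high germline markers. Between the wild-type organs it was called lower in spermathecae, at -4.23 (SE 1.21, adjusted p = 0.0178), and without that array the call was lost (adjusted p = 0.0828), as it was without replicate 1 of the wild-type spermathecae (0.0858) and with robust variances (0.107). Without the other wild-type lower-tract array its difference between mutant and wild-type lower tract was -4.80, with the array of the high germline markers alone in the wild-type group. RpS19b (1634464_at), another paralog known from the germline, read 13.6 to 29.9 on all 8 arrays and was called in no comparison.

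The RpS28 paralogs differed in brightness and in their calls. RpS28b (1624792_at) belonged to the bright members and differed between organs by 0.75 in the mutant (adjusted p = 0.00784) and 0.81 in wild type (adjusted p = 0.00573), which control scaling turned to -0.15 and -0.17 and quantile normalisation took to 0.09 (0.488) and 0.18 (0.166). The mutant call was lost without replicate 2 of the mutant lower tract (0.0618) or of the mutant spermathecae (0.0738). RpS28a (1622966_at) read 29.3 and 31.8 in mutant spermathecae against 7.95 and 31.5 in mutant lower tract, and 24.9 and 14.0 in wild-type spermathecae against 3.57 and 2.68 in wild-type lower tract. It was called higher in wild-type spermathecae, at 1.68 (SE 0.545, adjusted p = 0.0305), which rests on signals near the background. Leaving out 1 wild-type array, other than replicate 2 of the spermathecae, ended that call (0.0682 to 0.152), as did no filter (0.0724), a pseudocount of 20, which gave 0.76 (0.0565), and control scaling, which gave 0.71 (0.293). RpL10Ab (1638570_a_at), of the L1 stalk, differed between organs by 0.72 in the mutant (adjusted p = 0.00713) and 0.61 in wild type (adjusted p = 0.0184), turned by control scaling to -0.18 and -0.37 and taken by quantile normalisation to 0.07 (0.579) and 0.01 (0.958). Its mutant call was lost without replicate 2 of the mutant lower tract (0.071) or of the mutant spermathecae (0.0692), and its wild-type call without either wild-type lower-tract array (0.0731 each) or replicate 1 of the wild-type spermathecae (0.067). Its paralog RpL10Aa read 2.06 to 4.55 on all arrays.

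RpL34a (1641721_a_at), a large-subunit protein below the limit used for the 30, read 2608 and 2191 in mutant spermathecae against 1116 and 1159 in mutant lower tract, and 2528 and 1996 in wild-type spermathecae against 1195 and 1258 in wild-type lower tract. The organs did not overlap, with differences of 1.07 in the mutant (SE 0.161, adjusted p = 0.000424) and 0.87 in wild type (SE 0.161, adjusted p = 0.00165). Control scaling took the mutant value to 0.16 (0.604) and turned the wild-type value to -0.10. RpL37-2 (1636738_at), the paralog of RpL37-1, read 14.8 to 32.3 on all arrays and was called in no comparison, though control scaling called it lower in mutant spermathecae than lower tract, at -1.48 (0.0177).

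The mitochondrial ribosomal proteins showed no common shift between organs. In mutant spermathecae against mutant lower tract, 13 of 71 probe sets were called higher and 7 lower, with a median difference of 0.02. In wild-type spermathecae against wild-type lower tract, 3 were called higher and 8 lower, with a median of -0.02. Both counts lie below the shares of all tested probe sets given above for these comparisons, at 28.2% in the mutant and 15.5% in wild type for either direction. By subunit, the large subunit had 8 of 45 higher and 5 lower in the mutant and 1 higher and 5 lower in wild type, and the small subunit had 5 of 26 higher and 2 lower in the mutant and 2 higher and 3 lower in wild type. Called in both genotypes were 3 members higher in spermathecae (mRpL51, mRpS16 and mRpS21) and 3 lower (mRpL23, mRpL44 and mRpS5). The share of all tested probe sets called in both genotypes was not counted.

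The balance of these calls depended on the scaling and on single arrays. Between organs, the calls over all tested probe sets fell as well in every fit that left 1 array in a compared group. Median centring gave 20 higher and 2 lower in the mutant and 7 higher and 4 lower in wild type. Of all 10113 tested probe sets it called 3102 higher and 1868 lower in the mutant and 2799 higher and 1821 lower in wild type. Control scaling gave 0 higher and 36 lower in the mutant and 0 higher and 49 lower in wild type. Of all tested probe sets it called 408 higher and 4263 lower in the mutant and 362 higher and 4906 lower in wild type. The mutant count of 20 calls fell to 4 without replicate 1 of the mutant lower tract, to 9 without its replicate 2, to 12 without replicate 1 of the mutant spermathecae and to 7 without its replicate 2, and the wild-type count of 11 fell to 7 without replicate 1 of the wild-type spermathecae and was 6 higher and 5 lower without replicate 1 of the wild-type lower tract.

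Of the members higher in spermathecae, mRpS21 (1631434_at), a small-subunit protein with a bacterial counterpart, separated the organs in both genotypes. It read 831 and 861 in mutant spermathecae against 397 and 474 in mutant lower tract, and 795 and 853 in wild-type spermathecae against 425 and 490 in wild-type lower tract. The difference was 0.96 in the mutant (SE 0.154, adjusted p = 0.000667) and 0.84 in wild type (SE 0.154, adjusted p = 0.00152). With control scaling the mutant value was 0.05 (0.892) and the wild-type value turned to -0.13. mRpS16 (1626433_at), which also has a bacterial counterpart, differed by 0.68 in the mutant (adjusted p = 0.016) and 0.56 in wild type (adjusted p = 0.0404), and control scaling turned these to -0.22 and -0.42. Its mutant call was lost without any 1 of the 4 mutant arrays (0.0685 to 0.0812), and its wild-type call without any 1 of the mutant arrays (0.0642 to 0.067), replicate 1 of the wild-type spermathecae (0.153) or replicate 2 of the wild-type lower tract (0.227). mRpL51 (1623182_at), a large-subunit protein without a bacterial counterpart, differed by 0.58 in the mutant (adjusted p = 0.0365) and 0.70 in wild type (adjusted p = 0.0175), and control scaling turned these to -0.33 and -0.28. Its mutant call was lost without any 1 of the 4 mutant arrays (0.0771 to 0.195), and its wild-type call without replicate 1 of the wild-type spermathecae (0.0943) or replicate 2 of the wild-type lower tract (0.102).

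In the mutant, the largest organ differences among mitochondrial members were those of mRpL42 and mRpL50, large-subunit proteins without bacterial counterparts. mRpL42 (1625392_at) read 230 and 224 in mutant spermathecae, against 85.7 and 105 in mutant lower tract, and these arrays did not overlap. The difference was 1.23 (SE 0.181, adjusted p = 0.000374). mRpL50 (1640761_at) read 132 and 124 in mutant spermathecae, against 52.6 and 74.1 in mutant lower tract, a difference of 0.99 (SE 0.219, adjusted p = 0.00447), lost without replicate 1 of the mutant lower tract (0.0525). Between the wild-type organs neither was called, with differences of 0.49 for mRpL42 (adjusted p = 0.0507) and 0.34 for mRpL50 (adjusted p = 0.242), but mRpL42 was called higher there under 5 alternatives: median centring (0.0252), a pseudocount of 20 (0.0457), quantile normalisation (0.0411), robust variances (0.0494) and a stricter filter (0.0338). mRpL35 (1627823_at) differed by 0.82 in the mutant (adjusted p = 0.00502) and mRpS25 (1634823_at) by 0.70 (adjusted p = 0.00838), and both calls were lost without replicate 1 of the mutant lower tract (0.0566 and 0.063) or replicate 2 of the mutant spermathecae (0.0507 and 0.0565). Control scaling turned both, to -0.08 and -0.21. It also ended the mutant calls of mRpL42, at 0.32 (0.456), and mRpL50, at 0.08 (0.866).

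Of the members lower in spermathecae, mRpS5 (1624324_a_at), a small-subunit protein with a bacterial counterpart, read 688 and 545 in mutant spermathecae against 1155 and 1369 in mutant lower tract, and 628 and 689 in wild-type spermathecae against 1090 and 1302 in wild-type lower tract. The organs did not overlap, and it was called lower in mutant spermathecae (a difference of -1.03, SE 0.172, adjusted p = 0.000834), with a difference of -0.85 in wild type (SE 0.172, adjusted p = 0.00282). mRpL23 (1634414_at), a protein near the exit of the peptide tunnel, read 54.4 and 49.5 in mutant spermathecae against 125 and 121 in mutant lower tract, and 63.5 and 50.7 in wild-type spermathecae against 152 and 115 in wild-type lower tract. Its differences were -1.18 in the mutant (SE 0.238, adjusted p = 0.00258) and -1.16 in wild type (SE 0.238, adjusted p = 0.00305). mRpS9 (1640142_at), of the small subunit, read 113 and 239 in wild-type spermathecae, against 480 and 496 in wild-type lower tract, and was lower by a difference of -1.55 (SE 0.287, adjusted p = 0.0017). In the mutant it read 247 and 298 in spermathecae, against 429 and 435 in the lower tract, a difference of -0.67 (adjusted p = 0.0839), which was called under 5 alternatives: control scaling (0.00102), the 4 mutant arrays alone (0.00435), quantile normalisation (0.0475), and without replicate 1 (0.00553) or replicate 2 (0.00605) of the wild-type spermathecae.

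mRpL13 (1634232_at), which has a bacterial counterpart, was lower in wild-type spermathecae, at 118 and 139 against 270 and 247 in wild-type lower tract, a difference of -0.99 (adjusted p = 0.0021). mRpL55 and mRpL38 were lower there by differences of -0.72 (adjusted p = 0.0112) and -0.74 (adjusted p = 0.0285), and both calls were lost with median centring (0.058 and 0.0817). The mRpL38 call was also lost without replicate 1 of the wild-type lower tract (0.111) or of the wild-type spermathecae (0.129). In the mutant, mRpL15, mRpL40, mRpS30 and mRpL28 had called differences of -0.79, -0.73, -0.54 and -0.46 (adjusted p of 0.0457, 0.0197, 0.0303 and 0.0373), each lost with median centring and without replicate 1 of the mutant lower tract or replicate 2 of the mutant spermathecae (0.0634 to 0.33). The weakest of the lower calls shared by both genotypes was mRpL44 (1632596_at), at -0.43 in the mutant (adjusted p = 0.0487) and -0.60 in wild type (adjusted p = 0.0129). Both were lost with median centring (0.234 and 0.0753), the mutant call also without any 1 of the 4 mutant arrays (0.106 to 0.2) and the wild-type call without replicate 1 of the wild-type lower tract (0.0524).

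Between genotypes, the mitochondrial members called were all lower in the mutant. In mutant against wild-type spermathecae 0 of 71 were higher and 1 was lower, and in mutant against wild-type lower tract 0 were higher and 3 were lower. Of all tested probe sets 3.89% were called lower in spermathecae and 3.33% in the lower tract, and 3 of 71 is near that share. At an unadjusted p below 0.05, limma gave 8 higher and 3 lower in spermathecae and 2 higher and 4 lower in the lower tract, or 15.5% and 8.5% of members in either direction, where 21.5% and 17.4% of all tested probe sets passed. The median differences were 0.10 in spermathecae and -0.02 in the lower tract.

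The member lower in both mutant organs was mRpL39 (1625665_at), a large-subunit protein without a bacterial counterpart, and the 2 comparisons share no array. It read 83.1 and 55.8 in mutant spermathecae, against 144 and 215 in wild-type spermathecae. It read 82.0 and 65.6 in mutant lower tract, against 282 and 211 in wild-type lower tract. Every mutant array was below every wild-type array. The difference was -1.32 in spermathecae (SE 0.281, adjusted p = 0.0187) and -1.68 in the lower tract (SE 0.281, adjusted p = 0.00693), or 0.400-fold and 0.312-fold of wild type. The spermathecal call was lost without replicate 2 of the mutant (adjusted p = 0.158), without replicate 2 of wild type (0.0718) and with control scaling (0.12). The lower-tract call was lost without replicate 2 of the mutant (0.0784) or replicate 1 of wild type (0.0551), which is the array with the high germline markers, and it passed under every alternative that kept all 4 lower-tract arrays. The difference of its genotype effect between organs was 0.36 (adjusted p = 0.761).

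The other 2 mitochondrial calls in the mutant lower tract were mRpL42 and mRpL50. mRpL42 read 85.7 and 105 in mutant lower tract, against 170 and 174 in wild-type lower tract, a difference of -0.83 (SE 0.181, adjusted p = 0.0253). mRpL50 read 52.6 and 74.1 in mutant lower tract, against 121 and 124 in wild-type lower tract, a difference of -0.92 (SE 0.219, adjusted p = 0.0369). In spermathecae mRpL42 read 230 and 224 in the mutant, against 232 and 256 in wild type, and mRpL50 read 132 and 124 in the mutant, against 162 and 150 in wild type. Neither was called there, at differences of -0.10 (adjusted p = 0.811) and -0.27 (adjusted p = 0.525). Both lower-tract calls were lost without any 1 of the 4 lower-tract arrays (0.0703 to 0.253 for mRpL42 and 0.0647 to 0.331 for mRpL50) and with control scaling (0.339 and 0.301), and the mRpL50 call also with median centring (0.0593), quantile normalisation (0.0555), no filter (0.0628), no variance trend (0.0542) and a replicate block (0.0523).

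**Figure D5:**
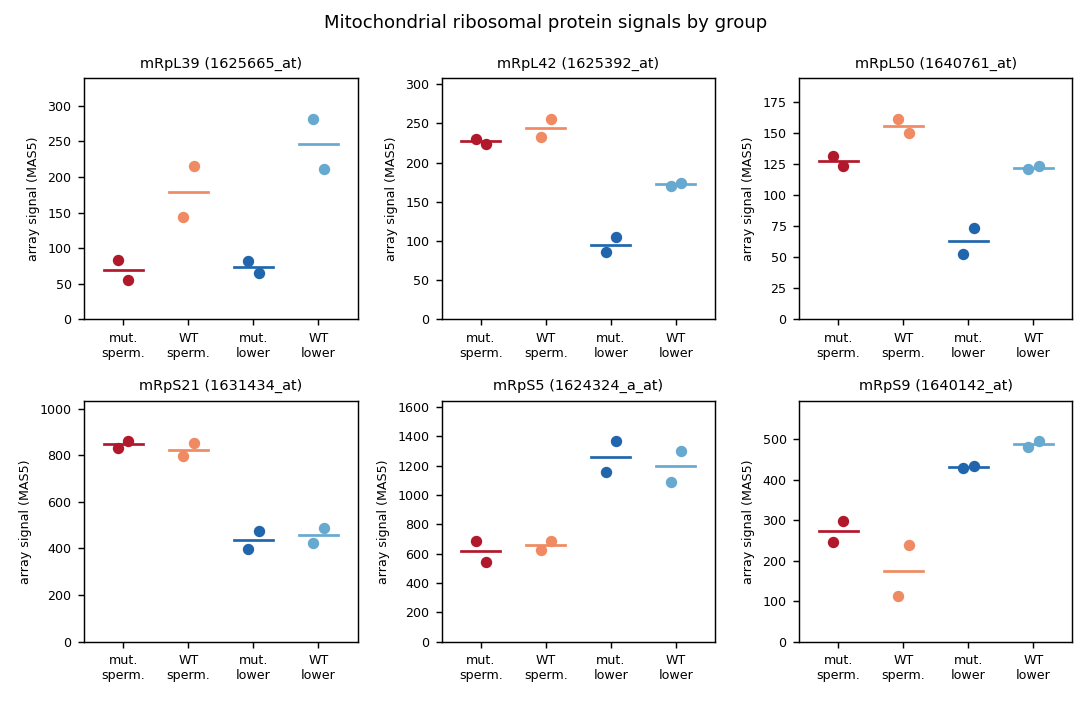
Signals of 6 mitochondrial ribosomal proteins on the 2 arrays (points) of each group, with bars at the group mean, on linear axes from 0. mRpL39 is lower in the mutant in both organs, mRpL42 and mRpL50 are lowest in mutant lower tract, and mRpS9 is lowest in wild-type spermathecae. As deposited, mRpS21 is higher and mRpS5 lower in spermathecae of both genotypes. Control scaling takes the mRpS21 difference to 0.05 in the mutant and -0.13 in wild type.

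Markers of other cell types moved between genotypes too. In the lower tract 2 of 3 tested fat body probe sets were called lower in the mutant, apolpp by a difference of -1.39 (adjusted p = 0.01) and Lsd-1 by -0.96 (0.0163), with a summed fat body signal of 2122 and 2865 in mutant and 5703 and 5596 in wild-type lower tract, while Fbp1 and Fbp2 read 2.65 to 39.5 on the lower-tract arrays. Called higher there were 1 of 5 hemocyte probe sets, NimC1 at 2.82 (0.00102), and 1 of 2 neuronal ones, nSyb at 2.54 (0.0443). The summed hemocyte signal was 3021 and 2559 in mutant and 2383 and 2666 in wild-type lower tract, and the neuronal one 226 and 287 in mutant and 138 and 221 in wild-type lower tract. In spermathecae Act87E of muscle and Lsd-1 were called higher in the mutant, at 1.07 (0.00516) and 0.75 (0.0407), as 1 of 4 muscle and 1 of 3 fat body probe sets. Their part in the genotype differences of mRpL39, mRpL42, mRpL50, RpL7-like and RpL3 was not tested.

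Mitochondrial members were also read by whether the bacterial ribosome has a counterpart, as 44 of the 71 probe sets do and 27 do not. All 3 members called lower in the mutant lower tract were among the 27, and 0 were among the 44, where 3.33% of all tested probe sets were called lower. The median differences there were 0.04 for the 27 and -0.07 for the 44. Between organs, 8 of 44 were higher and 4 lower in the mutant among those with a counterpart, and 5 of 27 were higher and 3 lower among those without. In wild type, 2 of 44 were higher and 4 lower, and 1 of 27 was higher and 4 lower. Of all tested probe sets, 24.7% were called higher and 21.5% lower in the mutant, and 22.2% and 21.5% in wild type. The difference between these classes was not tested. Hr39 lies on chromosome arm 2L, while mRpL39 and mRpL50 lie on 3L, mRpL42 on 2R and RpL3 on 3R. RpL7-like shares arm 2L with Hr39, with 1258 annotated genes between them.

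With all 8 arrays no member was called for a difference in its genotype effect between the organs. In the interaction of genotype and organ, limma called 0 of 41 cytosolic and 0 of 71 mitochondrial probe sets, where it called 3.05% of all tested probe sets (1.76% higher and 1.29% lower). At an unadjusted p below 0.05, 3 cytosolic and 5 mitochondrial probe sets passed, where 14.0% of all tested probe sets did, and the smallest adjusted p were 0.133 for RpL7-like and 0.208 for mRpL42, whose difference of genotype effects was 0.73 (SE 0.256). The set medians were 0.06 for the cytosolic and 0.14 for the mitochondrial members, beside 0.04 over all tested probe sets. Without replicate 2 of the wild-type lower tract, the difference of genotype effects was 1.08 for RpL7-like and 6.17 for RpS5b, beside 0.83 and 3.83 with all 8 arrays. That fit read the wild-type lower tract from the array with the high germline markers alone.

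Across probe sets, the organ difference in the mutant tracked that in wild type, over arrays that the 2 comparisons do not share. Pearson's r was 0.88 and Spearman's rho 0.823 over the 30 bright cytosolic members, and 0.751 and 0.763 over the 71 mitochondrial ones, of which 57 had the same sign in both genotypes. Over all tested probe sets r was 0.84 and rho 0.773, and 8157 of 10113 had the same sign, a share near that of the mitochondrial members. Probe sets of a comparison share their arrays and are not independent.

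The factors that work with the cytosolic ribosome showed organ differences of the same sign as its proteins. Of 39 tested probe sets of translation factors, 27 were called higher in spermathecae and 1 lower in the mutant (median 0.70), and 21 higher and 1 lower in wild type (median 0.54). Of all tested probe sets, 24.7% were called higher in the mutant and 22.2% in wild type. Both shares also fell in the fits without 1 array that follow. The mutant count called higher was 14 without replicate 1 of the mutant lower tract, 17 without its replicate 2 and 15 without replicate 1 of the mutant spermathecae, and the wild-type count was 14 without either wild-type lower-tract array. The 1 lower in both was eEF1alpha2, an isoform of the elongation factor that delivers aminoacyl-tRNA, at 73.2 and 92.3 in mutant spermathecae against 900 and 853 in mutant lower tract. Its differences were -3.35 in the mutant (adjusted p = 5.81e-06) and -3.01 in wild type (adjusted p = 1.34e-05). eEF1delta, an exchange factor subunit, was higher by 1.62 between mutant organs and by 0.78 between wild-type organs (adjusted p = 2.77e-05 and 0.00348), and eIF2Balpha, a subunit of the exchange factor of initiation, by 1.55 and 1.41. Rack1, a scaffold protein of the small subunit, read 9361 and 9542 in mutant spermathecae against 5327 and 4519 in mutant lower tract, and 9145 and 7895 in wild-type spermathecae against 5932 and 4679 in wild-type lower tract. Its difference was 0.95 in the mutant (adjusted p = 0.00149) and 0.69 in wild type (adjusted p = 0.00953). With control scaling the translation factors had 1 called higher and 7 lower in the mutant and 0 higher and 11 lower in wild type. Of all 10113 tested probe sets, that scaling called 408 higher and 4263 lower in the mutant and 362 higher and 4906 lower in wild type. The factors' medians were then -0.21 in the mutant and -0.43 in wild type, beside -0.77 and -0.90 over all tested probe sets.

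Of 34 tested probe sets of ribosome assembly genes, 22 were called higher in mutant spermathecae and 0 lower (median 0.94), and 7 higher and 0 lower in wild type (median 0.43), where 24.7% and 22.2% of all tested probe sets were called higher in the same order of genotypes. The wild-type count of 7 of 34 is near that share. NHP2, a protein of the particles that modify ribosomal RNA, read 629 and 661 in mutant spermathecae against 210 and 207 in mutant lower tract, and 499 and 517 in wild-type spermathecae against 321 and 194 in wild-type lower tract. The organs did not overlap, and the differences were 1.61 in the mutant (adjusted p = 0.000199) and 1.01 in wild type (adjusted p = 0.00389). Several of these genes read higher on the wild-type lower-tract array with the high germline markers than on its duplicate: pit, an RNA helicase, read 209 against 99.7 and Fib, the methyltransferase fibrillarin, 229 against 86.3. Without that array 11 of 34 were called higher in wild type and 0 lower, and without its duplicate 3 were higher and 1 lower. With control scaling 1 was called higher and 0 lower in the mutant, and 0 higher and 3 lower in wild type. The medians were then 0.04 in the mutant and -0.55 in wild type, beside -0.77 and -0.90 over all tested probe sets.

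The other genes of mitochondrial translation also had calls both ways, as all tested probe sets did. Of 34 tested probe sets, 2 were called higher and 3 lower in mutant spermathecae (median -0.06), and 3 higher and 3 lower in wild-type spermathecae (median -0.18). These counts lie below the shares of all tested probe sets called in either direction, at 46.2% in the mutant and 43.7% in wild type. mTTF, a termination factor of mitochondrial transcription, was higher by 1.23 in the mutant (adjusted p = 0.00194) and 1.14 in wild type (adjusted p = 0.00337). mEFTu2 and mEFTu1, which deliver aminoacyl-tRNA to the mitochondrial ribosome, had differences of -0.89 and -0.61 in the mutant (adjusted p = 0.00504 and 0.00689) and -1.12 and -0.57 in wild type (adjusted p = 0.0014 and 0.0104). Between genotypes limma called 0 probe sets of translation factors, ribosome assembly genes and mitochondrial translation genes in either organ with all 8 arrays. At an unadjusted p below 0.05, 11, 2 and 4 passed in spermathecae and 1, 8 and 2 in the lower tract, in that order of lists, where 21.5% and 17.4% of all tested probe sets passed. Without replicate 2 of the wild-type spermathecae, 7 translation factor, 1 assembly and 1 mitochondrial translation probe set were called higher in mutant spermathecae, and 1 translation factor and 1 assembly probe set lower in mutant lower tract. Without replicate 1 of the wild-type spermathecae, 1 translation factor probe set was called lower in mutant spermathecae, and 1 translation factor and 1 assembly probe set lower in mutant lower tract. The median difference of the assembly probe sets between mutant and wild-type lower tract was -0.40 with all 8 arrays. It was -0.56 without replicate 2 of the wild-type lower tract, which leaves the array with the high germline markers alone in that group. Without that array it was -0.13.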

How the data were processed

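The deposited values are array signals on a linear intensity scale, produced by the authors with MAS5, whose version is not given, according to the labels and per the submitters' processing notes. The mean of each array after trimming 2% of probe sets at each end is 150, so the authors' values had been brought to a common level; detection calls and scanner settings were not used here. Of 18952 probe sets, 183 controls were left out, and 13647 of the other 18769 have 1 symbol in the annotation used, 402 several and 4720 none; all 117 members' symbols are current in RefSeq, which served for names, chromosome arms and gene order only. For arrays the number of arrays limits the precision.

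Signals were taken to log2 after adding 4. A probe set was tested if it reached the array median (50th percentile) on both arrays of at least 1 group, which left 10113. limma 3.58.1 in R 4.3.3 fitted 1 mean per group to all 8 arrays, with a variance trend (4 residual and 5.75 prior degrees of freedom), two-sided tests and Benjamini-Hochberg adjustment over all tested probe sets. Tables and plots were made in Python 3.11.15 with pandas 2.3.3 and matplotlib 3.10.9. In simulated data of 10113 probe sets the fit recovered 37% of log2 changes of 1 and 75% of changes of 2 between mutant and wild-type spermathecae. It recovered 35% and 79% between wild-type organs. False calls among the unchanged probe sets were 8 and 2. The simulation gave all groups the same mean and changed a small part of the probe sets. In the data 43.7% were called between wild-type organs, so the recovered shares do not carry over to the organ comparisons.

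Probe sets ending in _s_at, _x_at or _a_at, which may share probes with other transcripts, were 18 of the cytosolic and 4 of the mitochondrial members. The members, the gene lists and the near-saturation limit were chosen with earlier results of these data known. Named were up to 6 of the largest called differences each way per set and comparison, paralogs and -like genes, and up to 4 called genes of each other list per comparison; the stalk and ubiquitin-fusion proteins, further values of these genes in other comparisons, and pit and Fib were chosen after their values were seen. Original and duplicate arrays were compared across groups: same-numbered arrays' deviations correlated at -0.0323 to 0.026. No shared deviation by number was seen, which cannot exclude that same-numbered arrays were prepared together. Alternatives were other pseudocounts, filters, scalings, variance models, arrays in the fit and member choices, a replicate block, leaving out each array, and, chosen after seeing the data, scaling to the hybridisation controls.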

Additional observations from a re-analysis of the deposited data

How the results depend on the processing

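Counts below are called probe sets and medians are log2 differences, with the value as reported in brackets. Scaling to the hybridisation controls, an alternative chosen after seeing the data, moved most. Between organs it gave 2 called cytosolic probe sets (33) with a median of -0.10 (0.81) and 36 mitochondrial (20) with -0.89 (0.02) in the mutant. In wild type it gave 4 (35) with -0.19 (0.78) and 49 (11) with -1.0 (-0.02). Over all tested probe sets it gave 4671 calls (4670) with a median of -0.77 (0.14) in the mutant. In wild type these were 5268 (4418) with -0.90 (0.07). Between genotypes it left 0 cytosolic calls in spermathecae and 0 in the lower tract (1 in each), 0 mitochondrial in spermathecae (1) with a median of 0.22 (0.10), and 1 in the lower tract (3). It also turned called members' organ differences. In the mutant these became -0.08 for mRpL35, -0.21 for mRpS25, -0.22 for mRpS16, -0.33 for mRpL51, -0.18 for RpL10Ab, -0.33 for RpL7-like, -0.15 for RpS28b, -0.08 for RpL40, -0.35 for RpLP0, -0.19 for RpLP2 and -0.27 for RpS27A. In wild type they became -0.03 for RpLP1, -0.13 for mRpS21, -0.28 for mRpL51, -0.42 for mRpS16, -0.37 for RpL10Ab, -0.10 for RpL34a, -0.17 for RpS28b, -0.08 for RpL3 (1625889_at), -0.30 for RpL40, -0.42 for RpLP0, -0.19 for RpLP2, -0.04 for RpS12 and -0.44 for RpS27A. Quantile normalisation turned RpLP0 to -0.08 in the mutant and -0.05 in wild type, and RpS27A to -0.02 and -0.09. It left 16 cytosolic organ calls with a median of 0.28 in the mutant and 17 with 0.27 in wild type. Median centring gave cytosolic organ medians of 0.97 in the mutant and 0.95 in wild type and mitochondrial ones of 0.18 and 0.14, and the 11 mitochondrial calls in wild type became 7 higher and 4 lower. Without probe sets of shared probes 15 cytosolic organ calls were left in the mutant and 17 in wild type, by fewer probe sets tested. Without near-saturated members 3 and 5 of the 11 others were left, with medians of 0.53 and 0.42, and the cytosolic median between genotypes in spermathecae was 0.55 (0.01). The 1 cytosolic call there was 0 with no variance trend, with the 4 compared arrays alone and with 1 probe set per gene, and the 1 mitochondrial call became 2 with a stricter filter. In the lower tract the 1 cytosolic call was 0 without -like names. With the 4 compared arrays alone the mitochondrial calls were 1 in the lower tract and 6 between wild-type organs. The causes were not tested. Leaving out 1 array at a time gave the following ranges, cytosolic before mitochondrial. Between genotypes in spermathecae there were 0 to 1 and 0 to 2 calls with medians of -0.19 to 0.21 and 0.04 to 0.19, and in the lower tract 0 to 2 and 0 to 3 calls with medians of -0.11 to 0.04 and -0.14 to 0.09. Between organs there were 21 to 33 and 4 to 24 calls in the mutant with medians of 0.70 to 0.91 and -0.02 to 0.12, and 27 to 34 and 7 to 13 calls in wild type with medians of 0.59 to 0.92 and -0.18 to 0.05. The difference of the genotype effect between organs gave 0 to 2 and 0 to 1 calls with medians of -0.10 to 0.27 and 0.04 to 0.24. With the replicate number as a block, though the labels do not say that it pairs the arrays, the cytosolic organ calls were 33 in the mutant and 34 in wild type and the mitochondrial ones 19 and 12. The block ended 4 named calls, those of mRpL50 in the lower tract (0.0523), RpL3 (1634685_at) in wild-type organs (0.0552), and mRpL15 (0.0558) and mRpL44 (0.0503) in mutant organs. Of 60 named calls, 6 stayed past the threshold in every alternative, 16 were lost under control scaling alone and 38 under others too. Signals near the top of the scale limit what the 30 bright cytosolic members can show.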

Other observations

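A further 5 probe sets carry a ribosomal protein symbol beside another gene's and were not members. One shared by RpL28 and a small nucleolar RNA (1633905_at) read 77.9 and 51.4 in mutant spermathecae, 17 and 23.9 in wild-type spermathecae, 9.92 and 15.1 in mutant lower tract, and 0.491 and 13.5 in wild-type lower tract. One shared by mRpL53 and CG33155 (1634656_s_at) read 241 and 246 in mutant spermathecae, 183 and 211 in wild-type spermathecae, 346 and 367 in mutant lower tract, and 352 and 341 in wild-type lower tract, with every spermathecal array below every lower-tract array. Which of the paired genes gave these signals cannot be told from the probe sets.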
